A study of Mus musculus with 11 samples.

Results

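The genes described here are 31 members of the p53 pathway other than p21, taken by name from the 53453 gene rows of a TPM table from embryonic mouse neurospheres. They comprise p53 itself (Trp53), its feedback regulators, and targets that act in apoptosis, DNA repair, and metabolism or other stress responses. All 31 names had a row, and 29 reached at least 1 TPM in at least 5 libraries and could be tested; Perp and Dram1 did not. TPM is a length-normalised share of a library's transcripts, which allows levels to be set side by side between genes.

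Neurospheres are free-floating clusters grown from neural stem cells and their progeny. The libraries came from total RNA of primary neurospheres from the brain of E15.5 embryos. There were 6 libraries from control embryos, whose treatment is labelled none, and 5 from embryos labelled Klf5 overexpression, and each was counted as a separate embryo. For strain, sex, the means of overexpression and the cells it reached, the sources used here give nothing.

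p53 is a transcription factor that is held low in unstressed cells and accumulates, mainly through protein stabilisation, after DNA damage and other stress. It then activates genes that stop the cell cycle, such as Cdkn1a (p21), genes that promote apoptosis, and genes that repair DNA. It also activates Mdm2, the ubiquitin ligase that marks p53 for degradation, which closes a feedback loop. In neural precursors the pathway is known for limiting self-renewal and for removing damaged cells. RNA levels show the targets' transcripts, not the p53 protein.

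p53 binds DNA as a tetramer, and its consensus is a pair of 10-base half-sites. RefSeq promoter windows (GRCm38.p6, 250 bases before to 50 after a gene start) were found for 23 of the 31 members, in 29 windows, and were searched for the p53 consensus half-site, whose reverse complement is the same motif. An exact half-site stood in 11 of the 29 windows, or 37.9%, belonging to 10 members, against 8.36% of all 32851 windows. A full site, meaning 2 half-sites with a gap of 0 to 13 bases and at most 2 mismatches over 20 letters, stood in 24.1% of the members' windows and 10.1% of all windows. Matches are shown for some members of 3 arms whose levels are described below. Those of Aen, Ei24, Gadd45a, Ppm1d and Sesn1 are not shown, although the Ppm1d and Sesn1 stretches overlapped no annotated exon. Capitals mark the half-sites of the match, and every stretch shown lies before the start and in no annotated exon.

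Trp53, plus strand, chr11:69580264-69580313: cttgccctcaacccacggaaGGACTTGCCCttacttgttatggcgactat
Mdm2, minus strand, chr10:117710915-117710964: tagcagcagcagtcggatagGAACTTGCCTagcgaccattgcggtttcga
Ccng1, minus strand, chr11:40755442-40755501: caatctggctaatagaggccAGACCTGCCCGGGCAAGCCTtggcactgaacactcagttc
Bax, minus strand, chr7:45467070-45467130: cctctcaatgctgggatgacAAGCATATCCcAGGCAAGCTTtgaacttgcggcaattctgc
Polk, minus strand, chr13:96519378-96519437: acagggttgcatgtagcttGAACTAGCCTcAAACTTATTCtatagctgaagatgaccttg

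The Ccng1, Bax and Polk matches are full sites with 1 mismatch each, with gaps of 0, 1 and 1 bases. The Trp53 and Mdm2 matches are single half-sites, beginning 75 and 186 bases before the start. The window for Polk belongs to an internal start of the gene. The motif GGGNGNGG, a GC-rich pattern of the kind bound by Kruppel-like factors, was searched on both strands; it stood in 24 of the 29 members' windows (82.8%) and in 49.5% of all windows. These matches are letters in a window, and binding was not measured.

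Klf5 stood at 53.6 to 93.0 TPM in the overexpression libraries and at 0.371 to 1.29 TPM in controls. The rows given summed to 730832 to 821967 TPM per overexpression library and 814208 to 846780 TPM per control library, and rows that resemble ribosomal RNA took 11.1 to 28.4% and 17.7 to 29.7% of these sums. All 8 neural stem and progenitor markers were present; they summed to 2599 to 4110 TPM with overexpression and 3986 to 7080 TPM in controls. Most of this sum was Fabp7 (mean 2105 against 3596 TPM). Hes5 (69.0 against 125 TPM), Sox3 (123 against 198 TPM) and Msi1 (17.4 against 27 TPM) were also lower. So were Sox1 (16.1 against 21.9 TPM) and Sox2 (360 against 377 TPM), while Nes (382 against 342 TPM) and Ptprz1 (367 against 356 TPM) were not lower. The 7 neuronal markers summed to 198 to 315 TPM against 225 to 341 TPM, and the 6 astrocyte markers to 88.5 to 146 TPM against 141 to 206 TPM. Of the astrocyte markers, Aldh1l1 (15.8 against 62.6 TPM), Slc1a2 (4.65 against 11.9 TPM) and Aldoc (76.8 against 97.8 TPM) were lower. S100b, Aqp4 and Gfap were higher, at 8.42 against 0.956, 2.87 against 1.36 and 0.237 against 0.0150 TPM. The 7 oligodendrocyte lineage markers summed to 1693 to 2065 TPM against 1645 to 2844 TPM, with Cspg4 at 123 against 45.7 TPM. Summed levels did not exceed 2.86 TPM for 7 microglia and macrophage markers, 1.28 TPM for 6 endothelial and 0.833 TPM for 6 erythroid markers in any library; 8 mural and mesenchymal markers reached at most 8.72 TPM. The part of these differences in the results below was not tested. In bulk libraries fewer cells of a type and less RNA per cell cannot be told apart.

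The question was whether the feedback, apoptosis and repair arms move together when Klf5 is overexpressed. In limma on log2(TPM + 1), none of the 29 tested members passed a Benjamini-Hochberg adjusted p of 0.05 over all 13549 genes tested, of which 3.72% passed (2.29% higher, 1.43% lower). At an unadjusted p of 0.05, 5 of the 29 passed, namely Trp53, Mdm2, Bbc3, Trp53inp1 and Phlda3, all with estimates above 0, against 12.6% of all genes in either direction and 5.84% among higher estimates. Estimates lay above 0 for 26 of 29 members, where 42.4% of all tested genes lay above 0. The members' median log2 fold change was 0.13, against -0.04 for all tested genes. No member had groups that did not overlap, as 1.99% of all tested genes did with overexpression higher and 1.31% with overexpression lower. Each of the 11 fits that left out 1 library also called 0 members, and 23 to 27 members lay above 0.

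**Figure D1:**
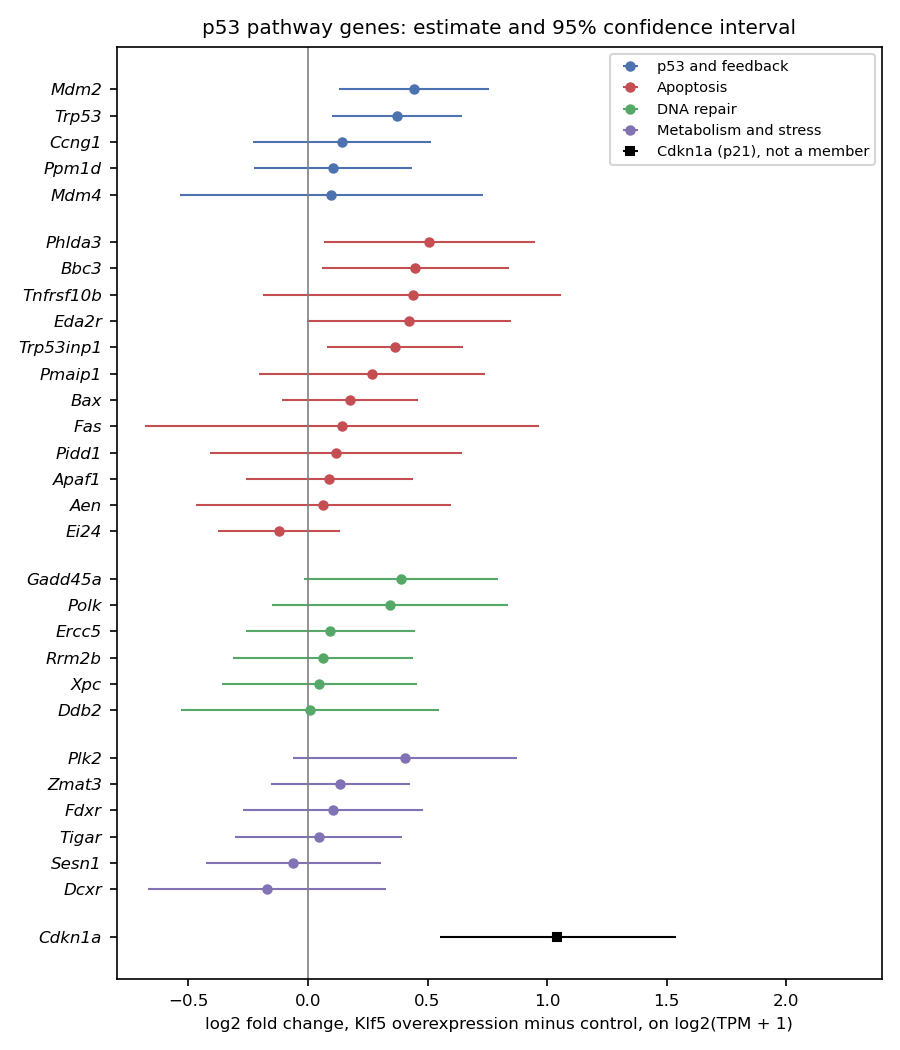
Log2 fold change of the 29 tested members, Klf5 overexpression minus control on log2(TPM + 1), with 95% confidence intervals from limma (6 control and 5 overexpression libraries). Members are grouped by arm; 26 of 29 points lie right of 0, and Cdkn1a, drawn below for scale, lies at 1.04.

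All 5 genes of p53 and its feedback regulators had estimates above 0, with a median of 0.14, which ran from 0.085 without control library 5 to 0.29 without overexpression library 3. Trp53 (ENSMUSG00000059552, chromosome 11, 69580359 to 69591873, GRCm38) had 124, 93.7, 115, 125 and 84.0 TPM in overexpression libraries 1 to 5. Control libraries ran from 72.3 to 96.0 TPM, with a median of 79.4 TPM. Overexpression libraries 1, 3 and 4 lay above every control, and the other two within the control range. Group means were 108 ± 18.5 TPM (SD, n = 5) and 82.7 ± 9.10 TPM (SD, n = 6). For Trp53 limma estimated a log2 fold change of 0.37, SE 0.13, with a 95% confidence interval of 0.10 to 0.65 and an adjusted p of 0.162.

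Mdm2 (ENSMUSG00000020184, chromosome 10, 117688875 to 117710758) had 53.5, 45.9, 41.6, 48.4 and 42.4 TPM in overexpression libraries 1 to 5, and 24.9 to 44.2 TPM in controls with a median of 31.7 TPM. The 2 highest controls, libraries 2 and 6, overlapped the overexpression group, while the other 4 stood below it. Mdm2 averaged 34.3 TPM over the controls (SD 7.57, n = 6) and 46.3 TPM over the overexpression libraries (SD 4.82, n = 5). Its estimate in limma was 0.44 on the log2 scale, SE 0.15, with an interval of 0.13 to 0.76 and an adjusted p of 0.147. The outcome for these 2 genes depended on how libraries were scaled. With trimmed-mean scaling the limma adjusted p was 0.00191 for Trp53 (log2 fold change 0.41) and 0.0299 for Mdm2 (0.48). Quantile normalization gave 0.00202 and 0.0312, and removal of ribosomal RNA-like and mitochondrial rows 0.00214 and 0.0279.

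The other 3 regulators lay closer to 0. Ccng1, cyclin G1, which brings a phosphatase to Mdm2, was the most abundant of the arm. It averaged 115 TPM with overexpression (SD 16.7, n = 5) and 106 TPM in controls (SD 29.4, n = 6), and its 5 overexpression values of 92.5 to 133 TPM all fell inside the control range of 66.8 to 152 TPM. Ppm1d, the Wip1 phosphatase that switches off p53 and the damage kinases, had 21.6 against 20.1 TPM. Mdm4, an inhibitor related to Mdm2, varied most for its level, ranging from 10.4 to 36.1 TPM with overexpression and from 12.4 to 33.6 TPM in controls. Limma adjusted p were 0.872, 0.901 and 0.965 for Ccng1, Ppm1d and Mdm4, and the Mdm4 estimate of 0.10 was -0.13 without overexpression library 4.

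**Figure D2:**
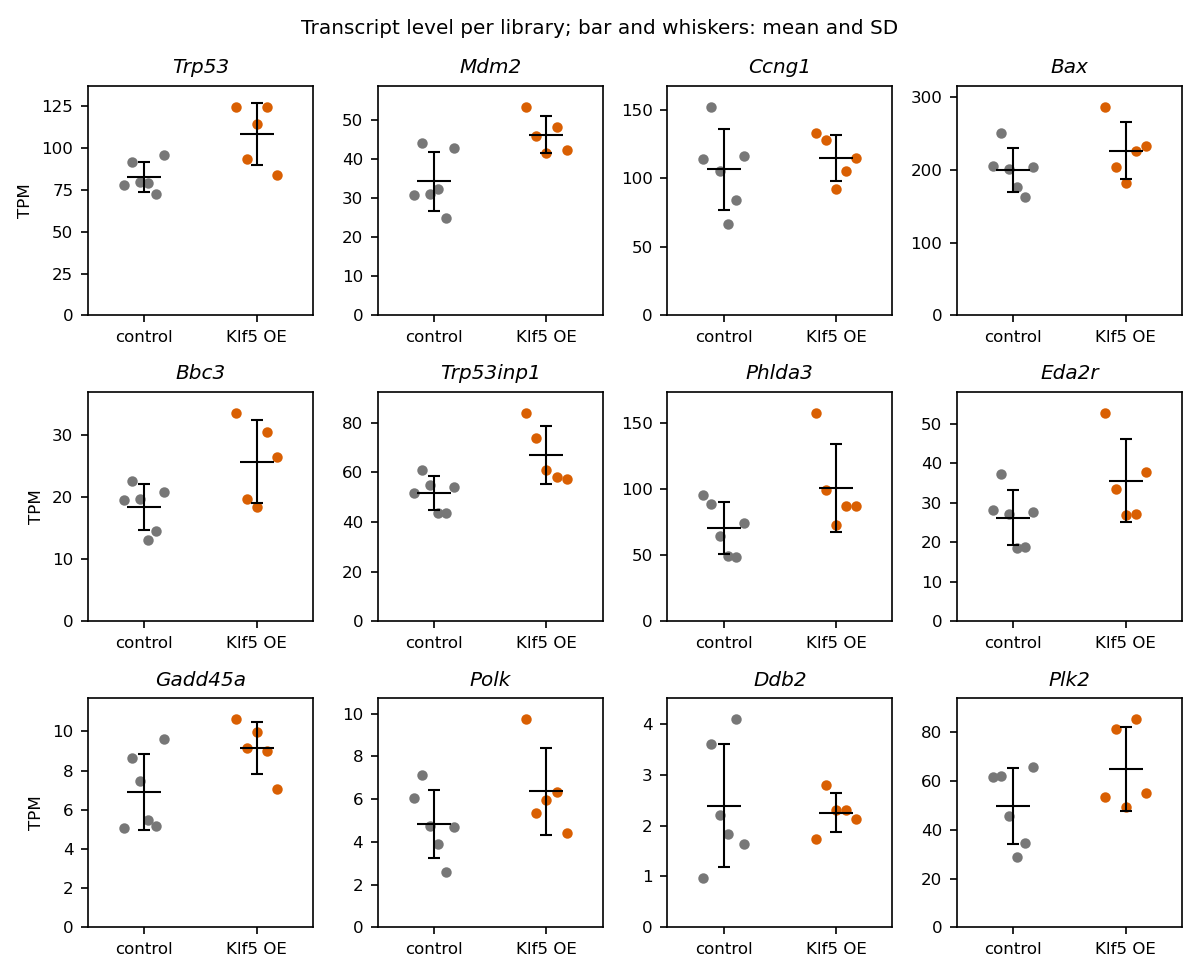
TPM per library for 12 members in 6 control (grey) and 5 Klf5 overexpression libraries (orange), with mean and SD; each vertical axis starts at 0. The groups overlap in every panel; for Trp53, Mdm2 and Bbc3, 3 of 5 overexpression libraries exceed the highest control.

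The apoptosis arm held 13 members, of which 12 were tested, 11 lay above 0, and the median log2 fold change was 0.22. This median was 0.14 without control library 4 and 0.38 without control library 2. Phlda3 (chromosome 1, 135766119 to 135769136), a membrane-binding protein that restrains Akt, had the largest estimate among all members. Its levels were 158, 99.3, 72.8, 87.5 and 87.4 TPM in overexpression libraries 1 to 5, and 48.8 to 95.7 TPM in controls, with a median of 69.7 TPM. Library 1 stood far above the rest of its group, and libraries 3, 4 and 5 lay within the control range. Mean Phlda3 was 101 ± 33.2 TPM (SD, n = 5) against 70.5 ± 19.6 TPM (SD, n = 6). The estimate from limma was 0.51 on the log2 scale, SE 0.21, adjusted p = 0.283; without overexpression library 1 the estimate was 0.33.

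Trp53inp1 (chromosome 4, 11156431 to 11174379), a stress-induced nuclear protein that acts with p53, had the smallest p of this arm. Overexpression libraries 1 to 5 held 84.0, 74.0, 61.1, 58.1 and 57.2 TPM, and controls 43.6 to 61.1 TPM with a median of 52.9 TPM. All 5 lay above the control mean of 51.5 ± 6.85 TPM (SD, n = 6), and the overexpression mean was 66.9 ± 11.7 TPM (SD, n = 5). Libraries 4 and 5 lay within the control range and library 3 level with its upper end. Limma gave Trp53inp1 a log2 difference of 0.36, SE 0.13, with an interval of 0.08 to 0.65 and an adjusted p of 0.201.

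Bax, which opens the mitochondrial outer membrane, was the most abundant of all 31 members. It had 287, 205, 182, 227 and 233 TPM in overexpression libraries 1 to 5, against 163 to 250.5 TPM in controls with a median of 203 TPM. Only library 1 exceeded the controls, and the log2 fold change of 0.17 (SE 0.13) had an interval of -0.11 to 0.46 (limma adjusted p = 0.72). Without that library the Bax estimate was 0.086. Bax overlaps Gm45808, so its reads could be shared with that gene. Bbc3 (PUMA), which relieves the block on Bax, had 33.6, 19.8, 18.4, 30.5 and 26.5 TPM against 13.2 to 22.6 TPM in controls. Its libraries 1, 4 and 5 lay above all controls, and its log2 fold change was 0.45 (SE 0.18; limma adjusted p = 0.288). Pmaip1 (NOXA), of the same protein class, had 6.59 against 5.46 TPM, and Apaf1, the scaffold that activates caspase 9, had 14.98 against 14.2 TPM.

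Receptor genes of this arm were expressed at low to moderate levels. Eda2r, a receptor of the TNF receptor family encoded on chromosome X, had 52.8, 33.5, 27.0, 27.2 and 37.8 TPM against 18.5 to 37.4 TPM in controls. Only libraries 1 and 5 exceeded every control, and limma gave a log2 difference of 0.42, SE 0.20 (adjusted p = 0.408). Tnfrsf10b, the TRAIL receptor, had 4.79 against 3.28 TPM, and Fas 1.64 against 1.68 TPM. Tnfrsf10b had an estimate of 0.44 with an interval of -0.19 to 1.06. Fas was listed at 0 in control library 3 and at 5.26 TPM in control library 2, and its estimate on the log scale, 0.14, had the opposite sign to the difference of mean TPM and was -0.10 without control library 3.

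Aen, Pidd1 and Ei24 had estimates closer to 0. Aen, an apoptosis-enhancing nuclease, had 45.9 against 45.6 TPM and Pidd1, a death domain scaffold, 7.92 against 7.45 TPM. Both estimates turned below 0 without overexpression library 1, to -0.09 for Aen and -0.03 for Pidd1. Ei24, an endoplasmic reticulum protein, was the only tested member of this arm below 0, at 106 against 116 TPM (log2 fold change -0.12, interval -0.38 to 0.13). Perp, a membrane protein of cell junctions, was below the filter, at 0.397 to 1.52 TPM with overexpression (mean 1.04) and 0.0959 to 1.17 TPM in controls (mean 0.468). In the limma fit without a filter, Perp had an estimate of 0.49 with an interval of 0.0092 to 0.97 and an adjusted p of 0.553.

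Of 6 DNA repair members all had estimates above 0, with a median of 0.08 and a smallest limma adjusted p of 0.439. Leaving out control library 1 brought this median to 0.016, and leaving out overexpression library 5 to 0.16. Gadd45a, a stress sensor that binds repair and cell cycle proteins, had the largest estimate of the arm. It stood at 10.6, 9.14, 9.95, 9.00 and 7.09 TPM in overexpression libraries 1 to 5 and at 5.07 to 9.60 TPM in controls, with a median of 6.49 TPM. All 5 lay above the control mean of 6.91 ± 1.95 TPM (SD, n = 6), though libraries 2, 4 and 5 lay within the control range. Gadd45a had a log2 fold change of 0.39 (SE 0.19), with an interval of -0.02 to 0.79.

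Polk, a polymerase that copies past damaged bases, had 9.75, 5.35, 5.95, 6.35 and 4.44 TPM in overexpression libraries 1 to 5, and 2.57 to 7.11 TPM in controls, with a median of 4.71 TPM. Library 1 alone lay above the controls, and the log2 fold change of 0.34 (SE 0.23; limma adjusted p = 0.664) was 0.20 without it. The other 4 repair members lay closer to 0. Ddb2 and Xpc, which recognise damaged bases, had log2 fold changes of 0.01 and 0.05, and Ercc5, the nuclease that cuts beside the lesion, 0.09. Their mean levels with overexpression were 2.25, 9.61 and 21.03 TPM, against 2.39, 9.55 and 19.9 TPM. Rrm2b, the p53-induced subunit of ribonucleotide reductase, had 6.79 against 6.43 TPM, with a log2 fold change of 0.06. Rrm2b overlaps Gm3362 on the same strand, which averaged 69.0 TPM, so reads counted for Rrm2b may belong to that gene. Ddb2 overlaps Acp2 on the other strand. The strand setting was not found, so some Ddb2 reads may also belong to the neighbour.

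Among 7 targets with roles in metabolism, autophagy and other stress responses, 6 were tested, 4 lay above 0 and 2 below, with a median of 0.07. Plk2, a polo-like kinase, had 53.5, 81.4, 49.4, 85.5 and 54.9 TPM in overexpression libraries 1 to 5 against 28.7 to 65.5 TPM in controls, with a median of 53.7 TPM. Libraries 2 and 4 were high and the other 3 within the control range; the log2 fold change was 0.41 (SE 0.22; limma adjusted p = 0.508). Zmat3, a zinc finger RNA-binding protein, had 40.4, 33.7, 38.4, 40.2 and 36.1 TPM against 26.7 to 43.2 TPM, with a control median of 35.98 TPM. Every Zmat3 value with overexpression lay inside the control range (log2 fold change 0.13 ± 0.14, SE). Fdxr, which passes electrons to mitochondrial P450 enzymes, had 12.99 against 12 TPM, and Tigar, a phosphatase that lowers glycolysis, 8.05 against 7.76 TPM. Sesn1, a sestrin that restrains mTORC1, and Dcxr, a carbonyl reductase, were the members below 0, with log2 fold changes of -0.06 and -0.17. Dram1, a lysosomal membrane protein of autophagy, was at most 1.01 TPM in any library.

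**Figure D3:**
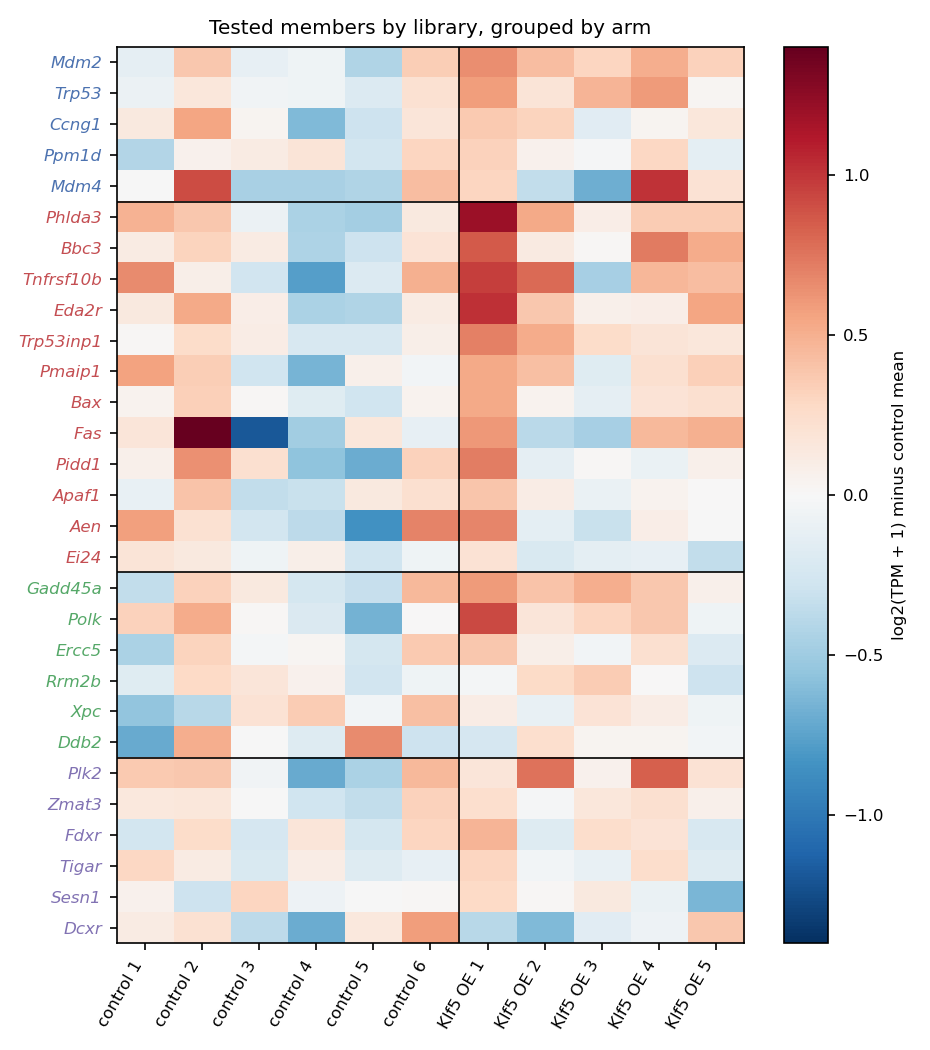
Log2(TPM + 1) of the 29 tested members minus the control mean of each gene, for 6 control and 5 Klf5 overexpression libraries, with arms separated by lines; red is above and blue below the control mean. Of the 17 genes in the feedback and apoptosis arms, 17 lie above the control mean in both control library 2 and overexpression library 1, 2 in control library 4 and 3 in control library 5.

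Whether the arms moved together was described from the mean log2(TPM + 1) of the tested members of each arm in each library. The difference, overexpression minus control, was 0.23 for feedback, 0.24 for apoptosis, 0.16 for repair and 0.08 for metabolism and stress. Control libraries spread by an SD of 0.29, 0.33, 0.21 and 0.20 in these arms (n = 6), so each difference was smaller than the SD between single control libraries. This SD is not the error of a difference between group means, and the arm differences were not tested. Of 5 overexpression libraries, 2 exceeded the highest control for feedback, 1 for apoptosis, 1 for repair and 0 for metabolism and stress.

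How the arms varied together within groups was described by correlation, and differences between correlations were not tested. After group means were subtracted, the feedback and apoptosis arms correlated across the 11 libraries with a Pearson r of 0.79 (Spearman rho 0.74), feedback and metabolism-stress with 0.81 (rho 0.81), and apoptosis and metabolism-stress with 0.74 (rho 0.66). Without the 2 libraries farthest from the median of the first arm, these r were 0.70, 0.74 and 0.75. Repair correlated with feedback at 0.63 (rho 0.68), with metabolism-stress at 0.40 (rho 0.54) and with apoptosis at 0.26 (rho 0.33). Without the 2 farthest libraries these values were 0.37, 0.73 and -0.26, in the same order. Here the farthest libraries were those of the feedback, repair and apoptosis arms, in that order. The libraries left out therefore differed between the pairs, and these values are not comparable with each other. Leaving out 1 library at a time gave repair and apoptosis a range of 0.0080 (without control library 2) to 0.59 (without control library 1). Repair and metabolism-stress reached 0.74 without control library 1. In the 6 controls by themselves, r was 0.82 for feedback with apoptosis, 0.82 for feedback with metabolism-stress and 0.90 for apoptosis with metabolism-stress. Repair had 0.75 with feedback, 0.30 with metabolism-stress and 0.29 with apoptosis. These are descriptions of 11 libraries, whose values share each library's scaling.

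**Figure D4:**
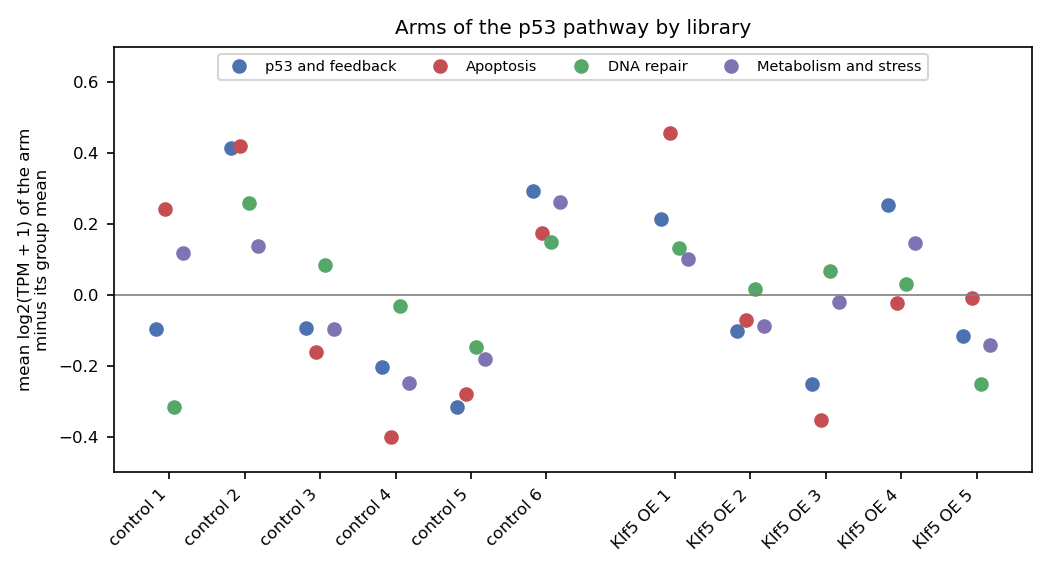
Mean log2(TPM + 1) of the tested members of each arm minus its group mean, for each library; points are shifted sideways so that the 4 arms can be seen. In control library 2 all 4 arms lie above 0, in control libraries 4 and 5 all 4 lie below, and in control library 1 the repair arm lies at -0.32 while apoptosis lies at 0.24.

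All genes of a library share its scaling, so the pairwise values were set beside those of all genes. Over the 406 pairs of tested members the median r within groups was 0.41, with 0.56 for 106 pairs within an arm and 0.37 for 300 pairs between arms; over all pairs of the 13549 tested genes it was 0.27. With trimmed-mean scaling the median over all pairs of tested genes was -5e-04, while member pairs within an arm had 0.56 and pairs between arms 0.29. Under that scaling the correlation of repair was 0.18 with apoptosis, 0.44 with feedback and 0.12 with metabolism-stress, and feedback with apoptosis was 0.81. The share of ribosomal RNA-like rows ran against the arm means within groups, with r of -0.71 for feedback, -0.43 for apoptosis, -0.68 for repair and -0.56 for metabolism-stress (n = 11 libraries). The mitochondrial share ran with them, with r of 0.62, 0.77, 0.32 and 0.44 in the same order. The part of either share in the variation was not tested.

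Single members differed in how closely they followed the rest. Against the mean of the other tested members, within groups, r was above 0.5 for 22 of 29, or 75.9%, where 21.1% of the other 13520 genes passed this value against the mean of the members. With trimmed-mean scaling it was 20 of 29, against 12.2% of the other genes, and the repair members above 0.5 went from 3 to 1. The members were grouped by a shared pathway, so this is a description. With TPM as deposited, all 12 tested apoptosis members had r above 0.5, from 0.56 (Fas) to 0.88 (Bax), and so had Mdm2 at 0.86, Ccng1 at 0.83, Mdm4 at 0.75 and Trp53 at 0.64. Of the 6 repair members, Polk (0.80), Gadd45a (0.65) and Ercc5 (0.64) followed the rest, whereas Xpc (-0.30), Ddb2 (-0.21) and Rrm2b (0.07) did not. Sesn1 was at -0.02. Cdkn1a, which is not a member, had r of 0.87 with the members' mean. Among single members its highest values were with Phlda3 (0.91), Ccng1 (0.90) and Tnfrsf10b (0.90), and its value with Trp53 transcript was 0.35.

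Promoter matches did not divide the members by fold change. The 10 members with an exact half-site had a median log2 fold change of 0.16, and the 12 tested members with a window but no match had 0.11. Phlda3, Eda2r and Bbc3 followed Cdkn1a across libraries (r of 0.912, 0.799 and 0.745 within groups). They had no exact half-site in their windows, which says nothing of sites elsewhere in these genes. Ccng1 (0.899), Aen (0.836) and Bax (0.743), with an exact half-site, followed it as well. Ppm1d (0.00092), with an exact half-site, and Fdxr (0.166), without, did not.

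Other genes of the pathway came from a list of 44, of which 38 were tested. Of these 3 passed, all higher, where 2.29% of all tested genes passed as higher. Estimates lay above 0 for 24 (63.2%), where 42.4% of all tested genes lay above 0. Among 14 tested further p53 targets, 2 rose. Cdkn1a, the cell cycle inhibitor p21, had 379, 299, 203, 269 and 256 TPM in overexpression libraries 1 to 5, each above the highest control of 199 TPM, and a log2 difference in limma of 1.04, SE 0.23 (adjusted p = 0.0166). The Cdkn1a call was lost without overexpression library 1 (adjusted p = 0.0517) and without a filter on low values (0.111). Gdf15, a stress-induced secreted factor, rose to a mean of 17.98 TPM (SD 6.70, n = 5) over 7.07 TPM in controls (SD 5.16, n = 6; limma adjusted p = 0.0451). Its call was lost in 9 of 11 fits that left out 1 library, where the adjusted p ran from 0.00779 to 0.135, and in 7 of 11 other fits.

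Of 11 genes of the core apoptosis machinery, only Bid rose, with 0 lower. Bid, which links death receptors to mitochondria, had 15.7, 18.0, 18.4, 16.8 and 12.97 TPM in overexpression libraries 1 to 5 and 3.50 to 6.73 TPM in controls, with a median of 3.93 TPM. The groups did not overlap, and limma gave Bid a log2 difference of 1.69, SE 0.18. The adjusted p was 3.14e-05, and at most 0.000509 in all 22 alternative fits. Its partners did not pass: Bak1 had 29.3 against 34.9 TPM, the protective Bcl2 7.72 against 10.4 TPM and Casp8, which cleaves Bid, 1.43 against 0.907 TPM. Of 13 tested upstream kinases, ubiquitin ligases and partners none passed in limma. An unadjusted limma p under 0.05 was found for 1, against 12.6% of all tested genes. This was Atm, the kinase activated by double-strand breaks, at 12.4 against 9.70 TPM (limma adjusted p = 0.318), with 4 of 5 overexpression libraries above the highest control. Atr, at 5.20 against 3.83 TPM (limma adjusted p = 0.531), also had 4 of 5 above its highest control.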

How the data were processed

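The authors deposited 1 table of TPM values, with 1 column for each of 11 libraries. Per the submitters' processing notes, HISAT2, StringTie, HTSeq, DESeq2 and build GRCm38.p5 were used; versions, roles, annotation release and strand setting were not found in these sources. The labels' protocol names a directional NEBNext and a KAPA library kit without saying which library got which, so kit could not be compared. TPM keeps no depth, so precision comes from the spread between libraries. Symbols were matched by Ensembl identifier for 53255 of 53453 rows; coordinates are GENCODE M21 (GRCm38), counted from 1.

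Genes reaching 1 TPM in 5 or more libraries were fitted as log2(TPM + 1) with limma 3.58.1 (R 4.3.3), with a variance trend, no covariate, and p-values (two-sided) adjusted by Benjamini-Hochberg over all tested genes. Fold changes on this scale are understated for genes near 1 TPM. The fit was tested on simulated data. The members, arms and lists were chosen with earlier results of these data known. Full values were given for 2 members per arm with the smallest p, the largest change per arm, and Trp53, Mdm2 and Bax. Those of Bbc3, Eda2r and others, and Atm, Atr, Hipk2, Bak1, Bcl2 and Casp8, were chosen after their values were seen. Trimmed-mean scaling took 30% of ratios and 5% of levels off each end. Alternatives changed pseudocount, filter, scaling, weights, variance trend or block, or left out each library; rescaling of the rows given to a common sum, and correlations under alternatives, over all genes or with 1 library left out, were added after seeing the data.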

Additional observations from a re-analysis of the deposited data

Results flagged for a closer look

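In 64 groups of libraries (31 members and Cdkn1a, 2 groups each), 2 held a library far from the others by Dixon's test; chance gives about 1 in 20. Fas stood at 5.26 TPM in control library 2, where the next highest control had 1.57 TPM. Pidd1 stood at 12.2 TPM in overexpression library 1, where the next had 7.42 TPM.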

How the results depend on the processing

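Over 22 alternatives the members called were 0 except for 2 (Trp53 and Mdm2) after quantile normalization, trimmed-mean scaling, removal of ribosomal RNA-like and mitochondrial rows, or rescaling to a common sum (added after seeing the data), and 1 (Trp53, limma adjusted p = 0.0289) with array weights. The cause was not tested. Calls over all genes tested, higher and lower, were 421 and 311 of 13549 after quantile normalization. They were 435 and 296 of 13539 under trimmed-mean scaling, and 457 and 296 of 14168 without ribosomal RNA-like and mitochondrial rows. Rescaling to a common sum called 401 and 165 of 13967, and array weights 394 and 242 of 13549. The members' median ranged from 0.086 to 0.246, and that of metabolism and stress genes was -0.00417 without overexpression library 1. Genes called lower, all tested, were 95 without a filter, 311 after quantile normalization, 296 under trimmed-mean scaling, 296 without ribosomal RNA-like and mitochondrial rows and 129 in 10 libraries without a block, against 194. Leaving out 1 library gave 206 to 313 genes called higher, all tested (lowest without overexpression library 4) and 117 to 212 lower genes (117 without overexpression library 2, 125 without control library 3, 129 without control library 6 or overexpression library 5). The replicate block gave 288 higher and 138 lower genes, and the same 10 libraries without it 277 and 129; both had 0 members called and a Ddb2 estimate of -0.0503. Of 5 same-numbered pairs, 1 had a correlation of deviations over 0.1 (range -0.0324 to 0.299) and 1 control library correlated best with its own number, so the numbers were not taken to pair libraries. Sesn1 was 0.015 after rescaling to a common sum. Estimates that changed sign when 1 library was left out ranged from -0.13 to 0.29 (Mdm4), -0.10 to 0.43 (Fas), -0.031 to 0.25 (Pidd1), -0.10 to 0.20 (Aen), -0.13 to 0.14 (Ddb2), -0.062 to 0.13 (Xpc), -0.011 to 0.15 (Rrm2b), -0.15 to 0.09 (Sesn1) and -0.019 to 0.10 (Tigar). Depth is unknown, which limits what can be said of Perp, Dram1 and Fas.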

Other observations

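Cdkn2a, whose locus encodes p19Arf, an inhibitor of Mdm2, and p16Ink4a, acts upstream of p53 and was singled out after its values were seen. It had 17.5, 49.4, 9.72, 13.5 and 4.78 TPM in overexpression libraries 1 to 5 and 6.13 to 14.9 TPM in controls, with a log2 fold change of 0.71 ± 0.41 (SE; limma adjusted p = 0.566). Library 2 was the highest for Cdkn2a. Cdkn1a, Mdm2 and Phlda3 each peaked in library 1, with library 2 next for Cdkn1a and Phlda3 and library 4 next for Mdm2. A link between Cdkn2a and these genes was not tested. Table values do not separate the transcripts of the 2 proteins.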
